A study of Gallus gallus with 205 samples.

Results

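Cells of the chicken primitive streak that held much SNAI2 transcript were set against streak cells that held little or none, to describe cells before and during ingression. Neither the position of a cell in the streak nor its ingression was measured, so the groups are classes of SNAI2 level only. A streak cell was SNAI2-high at 300 or more SNAI2 counts per 1000000 counts of that cell (CPM) and SNAI2-low under 50 CPM. Of the streak cells 96 (54.9%) were SNAI2-high, 34 (19.4%) were SNAI2-low and 45 (25.7%) lay between the limits, out of 205 cells in the whole study. The members were chosen by the measured SNAI2 level of the same cells, so SNAI2 itself is left out of the results. Its median was 758 CPM (336 to 2190) in SNAI2-high cells and 2.64 CPM (0 to 48.7) in SNAI2-low cells, of which 5 had no SNAI2 count. The cells nearest to the upper limit held 336 and 356 CPM above it and 299 and 296 CPM below it. Those nearest to the lower limit held 48.7 and 44.3 CPM below it and 51.5 and 63.1 CPM above it, so neither limit falls in a wide gap between cells.

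At this stage epiblast cells gather at the streak, leave the epithelial layer and move out beneath it as mesoderm and endoderm. SNAI2 (Slug) is a zinc-finger repressor of epithelial genes, and in the chick it is the SNAI family member known for its role in ingressing streak cells, a place taken by Snai1 in the mouse. The change from an epithelial to a mesenchymal state is usually followed by tight junction and cadherin genes on the one side and by SNAI, ZEB and TWIST factors on the other.

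All groups come from White Leghorn embryos at stage 4 of Hamburger and Hamilton, and the labels give no treatment or mutation for any of them. The streak had been cut out with a needle, and what remained of the area pellucida forms the surrounding region. SNAI2-high and SNAI2-low cells numbered 15 and 8 in the title series cPS, 28 and 5 in cPS1, 29 and 10 in cPS2 and 24 and 11 in cPS3, and the surrounding-region series cSR held 17 and 10. Each library is 1 cell and no label names an embryo, so each group is 1 sample, no difference below has a replicate check, and no p-value was computed.

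Depth was close in both groups. Median totals of expected counts were 2520370 (408481 to 4552697) in SNAI2-high and 2663077 (1333113 to 3993059) in SNAI2-low cells, with medians of 4773 and 4638 genes at 10 CPM or more. High levels of the W-linked transcript HINTW, at 700 CPM or more, were found in 27.1% of SNAI2-high and 23.5% of SNAI2-low streak cells. Among the title series the share of such cells differed most in cPS3, with 6 of 24 SNAI2-high cells and 0 of 11 SNAI2-low cells. In the surrounding region it was 8 of 17 SNAI2-high and 9 of 10 SNAI2-low cells. HINTW lay under 100 CPM in 58 of 96 SNAI2-high and 25 of 34 SNAI2-low streak cells. Within cPS1 this held for 11 of 28 SNAI2-high and 4 of 5 SNAI2-low cells. The part of embryo sex in the results was not tested by a model, and values within HINTW classes are given with the alternatives. The series also differ in library block, since cPS and cSR lie in blocks 1 and 2, cPS1 in block 3, cPS2 in blocks 3 and 4 and cPS3 in block 4.

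Single markers of other cell types were common in both groups, and cells with several of them were few. At least 1 of 8 endoderm and hypoblast markers reached 50 CPM in 43 of 96 SNAI2-high cells (44.8%) and 11 of 34 SNAI2-low cells (32.4%), and at least 1 of 7 non-neural ectoderm markers in 23 (24.0%) and 10 (29.4%). At least 3 endoderm and hypoblast markers at 50 CPM or more were found in 2 of 96 SNAI2-high and 4 of 34 SNAI2-low cells. At least 3 non-neural ectoderm markers were found in 0 of 96 SNAI2-high and 4 of 34 SNAI2-low cells. The summed level of the 8 endoderm markers ranged from 0 to 1552 CPM (median 54.3) in SNAI2-high and from 0 to 8702 CPM (median 13.1) in SNAI2-low cells. SOX17, a defining endoderm factor, stayed under 10 CPM in every cell of both groups. The summed level of the 7 ectoderm markers ranged from 0 to 1190 CPM (median 24.9) in SNAI2-high and from 0.375 to 1783 CPM (median 16.4) in SNAI2-low cells. Neural epiblast markers (SOX2, SOX3 and OTX2 summed) had medians of 0.832 CPM in SNAI2-high and 31.5 CPM in SNAI2-low cells. The log2 ratio without the 10 cells with 3 markers of either kind is also given for some genes, beside the result or further on. These are genes with a quoted ratio that passed a rule with those cells but none without them, or the reverse. Genes with a quoted ratio that moved by over 1.5-fold are included too. Some named genes that are not quoted moved as much, among them CER1 (-0.44 in all cells, 2.24 without those 10) and PKP3 (-1.66 and 0.31).

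Of 7616 genes measured at 10 CPM or more over the pooled streak cells, 336 (4.41%) rose and 1.83% fell in SNAI2-high cells by a rule of size. The rule asked for a ratio of pooled CPM of at least 2-fold, detection at 10 CPM or more in at least 25% of the cells of the higher group, the same direction in all 4 series, and at least 2-fold again without the highest cell of each group. Of the 336 genes, 81 rose at least 4-fold and 27 at least 8-fold, and of the genes that fell 27 did so at least 4-fold and 6 at least 8-fold. The median log2 ratio was 1.53 over the genes that rose, -1.52 over those that fell and 0.02 over all measured genes. These medians describe chosen genes, since the rule set their smallest size. Without the 10 cells with ectoderm or endoderm markers 390 genes rose, with 242 of the 336 among them, 80 of the genes that fell still passed, and every gene that had passed kept its sign.

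**Figure D1:**
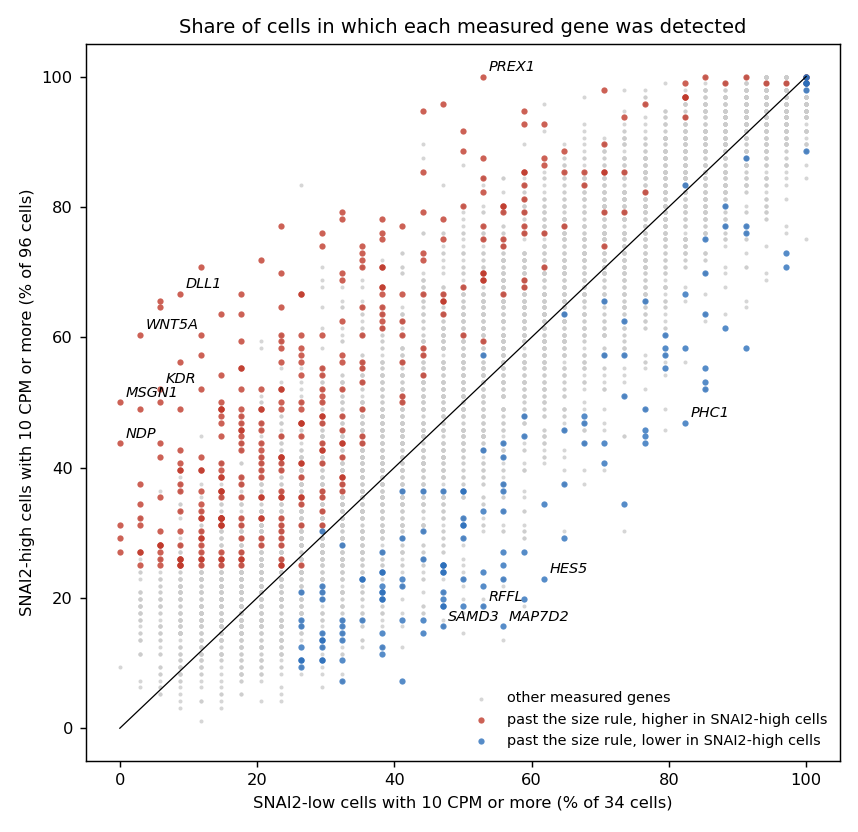
Each point is a measured gene, placed by the share of SNAI2-high cells (vertical axis, % of 96 cells) and of SNAI2-low cells (horizontal axis, % of 34 cells) that held it at 10 CPM or more. Red points rose and blue points fell by the rule of size, and the line marks equal shares. MSGN1 and NDP sit at the left edge, in 48 and 42 of the 96 SNAI2-high cells and in no SNAI2-low cell, and PREX1 reaches 100%.

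Genes of nascent mesoderm were among those with the largest ratios. MSGN1, a basic helix-loop-helix factor of presomitic mesoderm, was detected in 48 of 96 SNAI2-high cells and in 0 of 34 SNAI2-low cells (exact 95% intervals 39.6 to 60.4% and 0 to 10.3%). Its level ranged from 0 to 1093 CPM (median 9.60) in SNAI2-high cells and from 0 to 3.37 CPM (median 0) in SNAI2-low cells. The highest SNAI2-low cell therefore lies under the median of the SNAI2-high cells, while many SNAI2-high cells also had none. The pooled level was 98.5 CPM (97.2 to 99.7) in SNAI2-high against 0.369 CPM (0.255 to 0.515) in SNAI2-low cells, a log2 ratio of 6.18 that ran from 5.82 in cPS2 to 6.61 in cPS3. All log2 ratios here were taken after adding 1 CPM, which understates the ratios of low genes. The intervals of pooled levels cover counting error only, with PCR copies taken as separate counts. Those of shares of cells take cells as independent draws, and neither kind covers differences between embryos.

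TBX6, the T-box factor that commits cells to paraxial mesoderm, was found in most SNAI2-high cells. It ranged from 0.392 to 1689 CPM with a median of 293 in SNAI2-high cells, and from 0 to 665 CPM with a median of 25.4 in SNAI2-low cells. The groups overlapped, with 66 of 96 SNAI2-high and 6 of 34 SNAI2-low cells at or over the median of all streak cells. The log2 ratio was 1.89 and differed between series, from 3.56 in cPS to 0.70 in cPS3, where SNAI2-low cells had a median of 192 CPM against 7.63 to 11.1 CPM in the other series.

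T (Brachyury), the T-box factor of the whole streak, was found in nearly all cells of both groups, and its levels overlapped. Levels ranged from 7.58 to 8607 CPM (median 2345) in SNAI2-high cells and from 17.2 to 5732 CPM (median 812) in SNAI2-low cells. All but 1 SNAI2-high cell and every SNAI2-low cell passed 10 CPM. So did 9 of 10 SNAI2-low cells of the surrounding region, so T at this level does not mark streak cells, and the 3 lowest SNAI2-low streak cells held only 17.2, 21.2 and 22.9 CPM. The log2 ratio of 1.18 (0.75 to 2.15 within series) was 0.94, under 2-fold, without the 10 cells with ectoderm or endoderm markers.

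In the list of streak and mesendoderm genes, 9 of 21 were measured, 8 rose 1.5-fold or more with 1 direction over the 4 series, and none fell. For comparison with this list and the lists below, 8.82% of all measured genes rose and 4.21% fell by this 1.5-fold rule. Both shares are with all cells kept. No such share is given without the 10 cells with ectoderm or endoderm markers, so list counts without those cells have no matching share beside them. The 8 were T, TBX6, MSGN1, the bHLH factor MESP2 (log2 ratio 3.14) and the ligands WNT3A (1.04), WNT8A (1.56), WNT5A (3.02) and WNT11 (1.81). WNT8A stood at 3.80 without the 10 marker-bearing cells, and WNT11, at 1.41, no longer passed. EOMES, the T-box factor of mesendoderm, was the exception at -0.81, with medians of 19.2 CPM in SNAI2-high and 92.3 CPM in SNAI2-low cells and a ratio of 0.02 in cPS2. MIXL1, a homeobox factor of the streak, passed 10 CPM in no cell of either group.

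Of 17 paraxial mesoderm genes 8 were measured, and 5 rose and none fell, with a list median of 2.41. Besides MSGN1, TBX6 and MESP2 they were the Notch ligand DLL1 and the protocadherin PCDH8 (log2 ratio 2.93), both known from presomitic mesoderm. DLL1 ranged from 0 to 511 CPM (median 62.7) in SNAI2-high cells and from 0 to 16.5 CPM (median 0) in SNAI2-low cells. It was detected in 64 of 96 SNAI2-high and 3 of 34 SNAI2-low cells, so the few SNAI2-low cells with DLL1 lay at the low end of the SNAI2-high range. Its log2 ratio was 5.35, with 4.72 to 5.94 within series.

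Lateral and vascular mesoderm genes rose as well. Of 22 listed genes 8 were measured, of which 7 rose and none fell, with a list median of 1.90. KDR, the VEGF receptor that marks the first vascular and cardiac mesoderm, ranged from 0 to 1454 CPM (median 15.3) in SNAI2-high cells and from 0 to 15.6 CPM (median 0) in SNAI2-low cells. Detection was 50 of 96 against 2 of 34 cells, and the log2 ratio was 5.59, between 4.87 and 6.43 within series. The GATA factors of this list followed, with log2 ratios of 2.53 for GATA4, 1.57 for GATA6 and 1.57 for GATA2. They are not particular to mesoderm, since GATA4 and GATA6 are also in the endoderm and hypoblast list and GATA2 in the non-neural ectoderm list. ALDH1A2, the enzyme that makes retinoic acid in mesoderm, stood at 2.33 but at only 0.14 in cPS. The BMP signal inhibitor SMAD6 stood at 0.68. Without the 10 marker-bearing cells GATA6 stood at 2.93, GATA2 at 3.23 and ALDH1A2 at 3.61, and SMAD6, at 0.74, no longer passed.

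FLI1, an ETS factor of endothelial and blood precursors, reached 1400 CPM in single SNAI2-high cells but was detected in only 24 of 96, against 2 of 34 SNAI2-low cells. Its medians were 0 in both groups, and the log2 ratio of 5.42 rests on those 24 cells. ETS1, a related factor, was found in 24 of 96 SNAI2-high and 1 of 34 SNAI2-low cells, with a log2 ratio of 2.96. Defining blood and vessel markers were rare: at least 1 of the 3 in the tables passed 50 CPM in 3 of 96 SNAI2-high cells and in 0 of 34 SNAI2-low cells.

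The paraxial gene MSGN1 and the vascular gene KDR were not found in separate sets of SNAI2-high cells. MSGN1 and KDR were detected together in 30 of the 96 cells, MSGN1 alone in 18, KDR alone in 20 and neither in 28. KDR and GATA4 were together in 25 cells, and MSGN1 and GATA4 in 24. These counts were not set against the overlap that the detection of each gene alone would give. Of the 34 SNAI2-low cells 32 had neither MSGN1 nor KDR and none had both. The 28 SNAI2-high cells with neither gene at 10 CPM show that high SNAI2 was also found without these mesoderm genes.

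**Figure D2:**
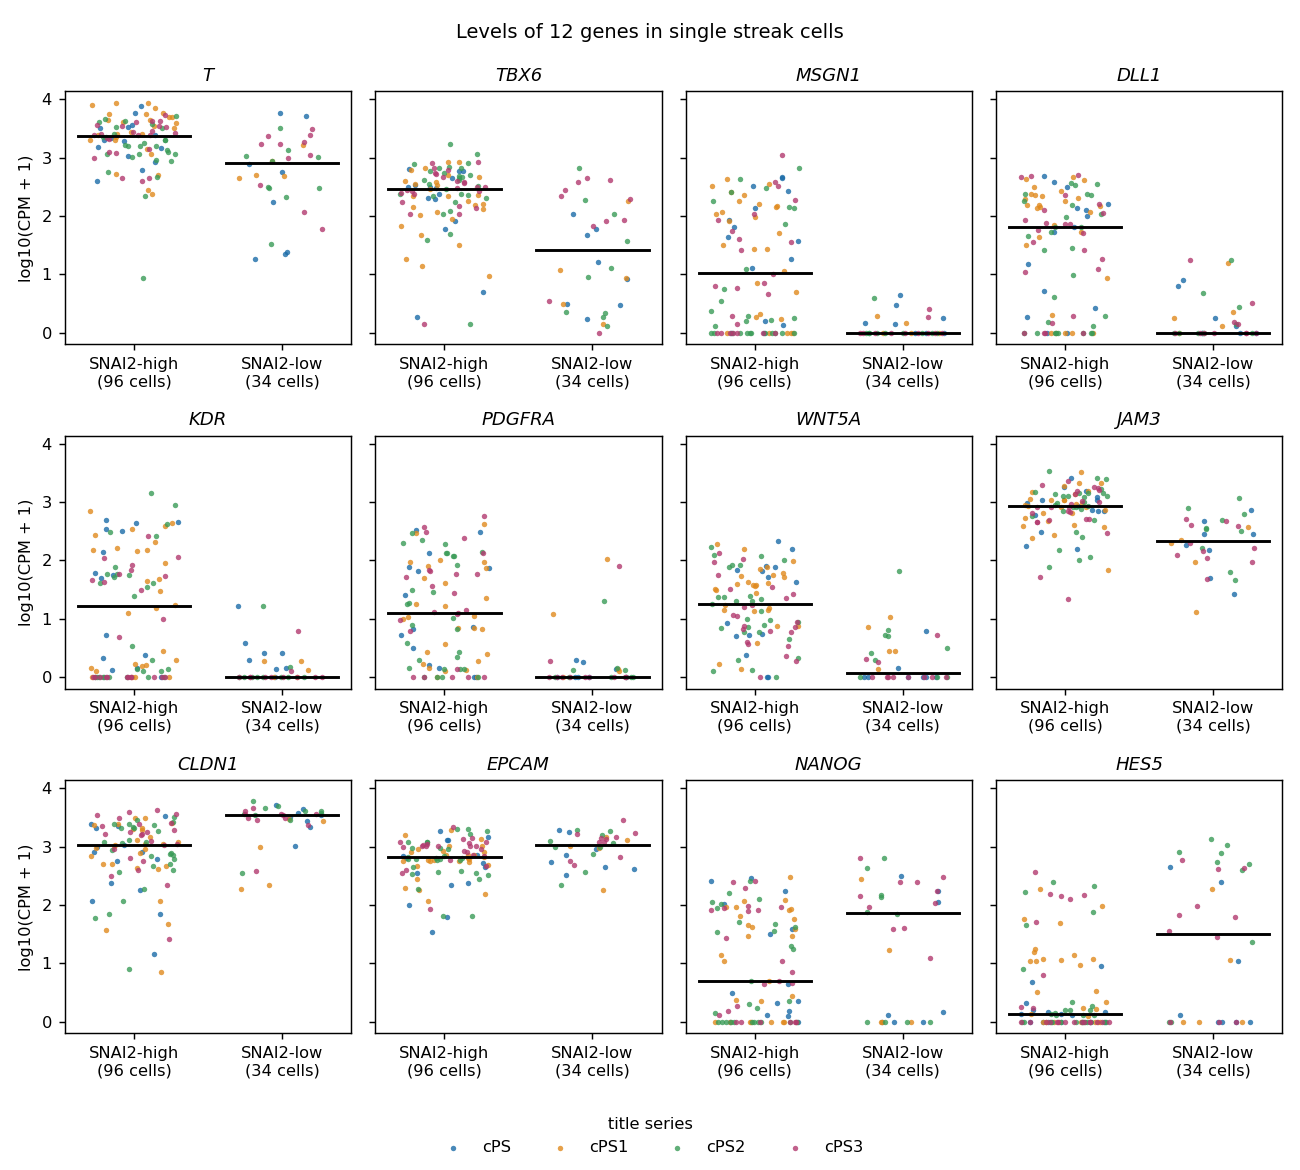
Each point is 1 streak cell, coloured by title series, with log10(CPM + 1) on the vertical axis, SNAI2-high cells on the left and SNAI2-low cells on the right of each panel; black lines are group medians. MSGN1, DLL1 and KDR are spread from 0 upwards in SNAI2-high cells and stay under 20 CPM in every SNAI2-low cell, while T, JAM3 and CLDN1 overlap and differ in median.

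Among the other genes with the 15 largest ratios were several signals and signal modulators. NDP (Norrin), a secreted ligand of the Frizzled receptor FZD4, was found in 42 of 96 SNAI2-high and 0 of 34 SNAI2-low cells, with a log2 ratio of 5.65. AGRP, known as an antagonist of melanocortin receptors, was found in 63 and 2 cells, with a log2 ratio of 4.20. EFNB2, a transmembrane ephrin, was found in 40 and 2 cells with a ratio of 3.37. In all 3 the SNAI2-high cells also held many zeros. The rest were KLF15 (4.32), PAX2 (3.78) and MEIS1 (3.39), which are transcription factors, DLC1 (3.53), a GTPase-activating protein, TNFRSF1A (3.36), a TNF receptor, and APOD (3.74), ATP6AP1L (4.91) and GALNTL1 (3.34). One unnamed identifier outside the naming rule, LOC417741, had the largest ratio of all, 6.75, with 518 CPM in SNAI2-high against 3.82 CPM in SNAI2-low cells and detection in 42 and 2 cells. DLC1 stood at 5.34 and LOC417741 at 7.67 without the 10 marker-bearing cells.

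**Figure D3:**
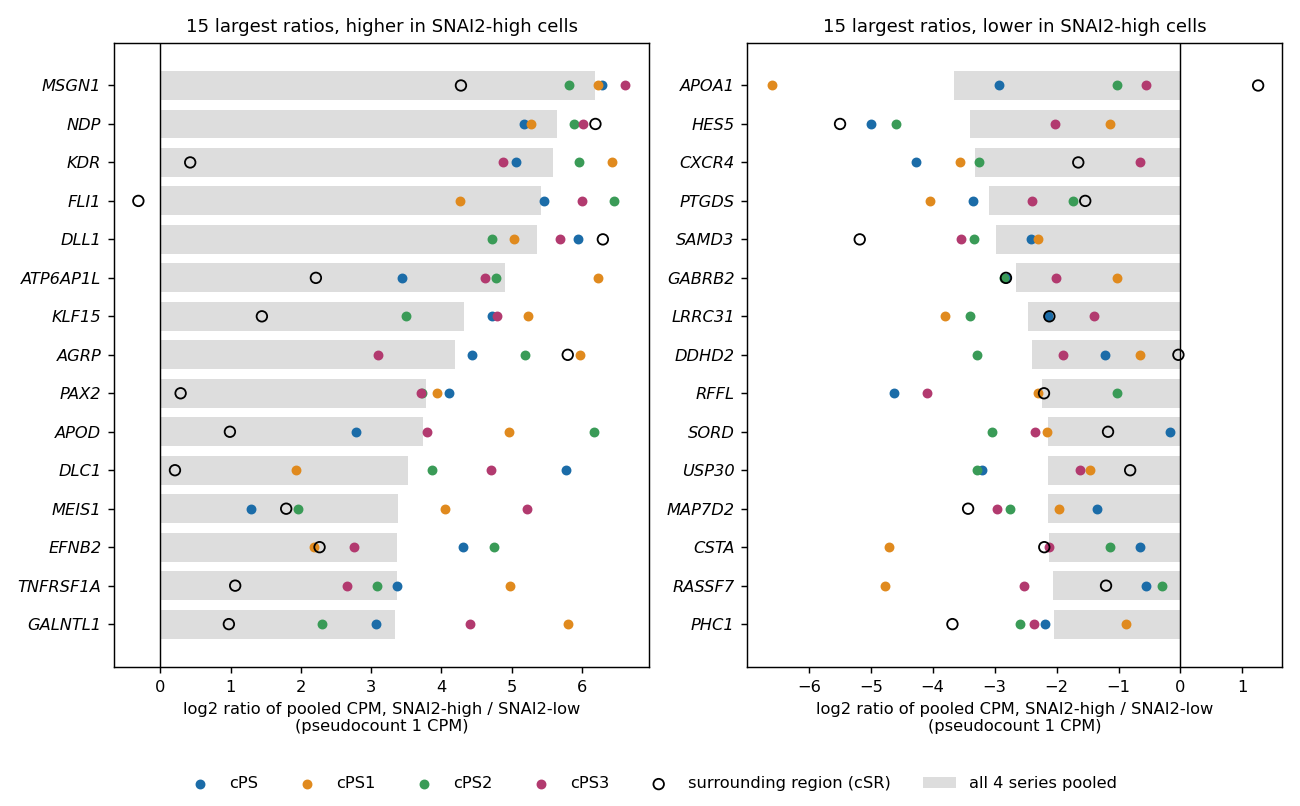
Bars give the log2 ratio of pooled CPM in SNAI2-high over SNAI2-low streak cells (1 CPM added) for the 15 named genes with the largest ratio each way; filled points are the 4 title series and open circles the surrounding region. All filled points lie on the bar's side of 0, as the rule required, while the open circles of FLI1 (-0.31) and APOA1 (1.25) lie on the other side.

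Of 22 measured members of the WNT pathway list 8 rose and 1 fell, where 8.82% of all measured genes rose and 4.21% fell: besides the 4 ligands, FZD10 and ROR2, which are receptors, LEF1, the nuclear partner of beta-catenin, and NKD1, a feedback inhibitor, rose with log2 ratios of 0.83 to 1.72. The secreted antagonist SFRP1 fell (-1.27), though by only -0.01 in cPS and -0.09 in cPS2. When the 10 marker-bearing cells were left out 6 rose and 2 fell: FZD10 (0.64), ROR2 (0.67) and WNT11 no longer passed, CELSR1, a cadherin of planar polarity, rose at 1.38 against -0.39 with those cells, and the antagonist SFRP2 fell at -1.95 against -1.55. The shares of all measured genes above are with all cells kept. WNT5A was found in 58 of 96 SNAI2-high cells and 1 of 34 SNAI2-low cells. WNT3A ranged from 0 to 606 CPM (median 77.1) in SNAI2-high cells and from 0 to 388 CPM (median 1.97) in SNAI2-low cells.

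In the Nodal list 3 of 12 measured genes rose and none fell, among them LEFTY2, a secreted Nodal inhibitor (log2 ratio 3.12), and PMEPA1, a feedback inhibitor (0.85). The list median was 1.09. In the BMP list SMAD1, the signal carrier, rose by 1.94 on the log2 scale and SMAD6 by 0.68, with 12 other members that did not pass. In the FGF list the feedback regulators SPRED1 (1.49), SPRED2 (1.02) and DUSP4 (1.09) rose, and 9 others did not pass. The FGF list median was only 0.10, and ETV4 (-1.59), DUSP6 (-0.80) and SPRY2 (0.16) did not pass. Of all measured genes 8.82% rose and 4.21% fell by the same rule with all cells kept. In the Notch list the ligand DLL1 and the target HEYL (1.56) rose while HES5, the target known from neural progenitors, fell by 3.40. HEYL and HES5, both Notch targets, thus moved in opposite directions. Without the 10 marker-bearing cells 5 genes of the Nodal list rose, GDF3 (1.58) and SKIL (3.02) among them, the Notch ligand JAG1 rose as well (1.70), and SPRED1, at 1.09, no longer passed.

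The genes of the epithelial state moved less than the mesoderm genes, and not all in one direction. Of 20 tight junction genes 8 were measured; 3 fell, CLDN1 and MPP5 among them, and JAM3 rose, with a list median of -0.64. CLDN1 (claudin 1), a strand protein of tight junctions, ranged from 6.11 to 4203 CPM with a median of 1058 in SNAI2-high cells and from 186 to 6060 CPM with a median of 3468 in SNAI2-low cells. It stayed detected in 94 of 96 SNAI2-high cells, and 31 of these 96 cells still reached the median of all streak cells, as did 28 of 34 SNAI2-low cells. The log2 ratio was -1.22, and the difference was smallest in cPS1 at -0.37, where the median of SNAI2-high cells was 1040 CPM and that of SNAI2-low cells 962 CPM. Without the 10 marker-bearing cells the pooled ratio was -1.35, but the 4 series no longer shared a direction and CLDN1 did not pass.

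MPP5 (PALS1), an apical scaffold, fell by 0.94. The junctional adhesion molecule JAM3 went the other way in all 4 series. It ranged from 21.2 to 3426 CPM (median 859) in SNAI2-high and from 12.1 to 1176 CPM (median 211) in SNAI2-low cells, a log2 ratio of 1.72. TJP1 (-0.34), CLDN12 (0.11), CGNL1 (0.28) and JAM2 (-0.995) did not pass the 1.5-fold rule.

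The textbook switch from CDH1 to CDH2 could not be followed in these transcripts, because CDH1 was too low in both groups. CDH1 (E-cadherin) was at 1.13 CPM in SNAI2-high and 0.630 CPM in SNAI2-low cells and passed 10 CPM in 3 and 1 cells, so it was close to undetected in both groups. CDH2 (N-cadherin) had a median of 376 CPM (0.982 to 1803) in SNAI2-high cells and 61.5 CPM (0 to 1774) in SNAI2-low cells. Its pooled log2 ratio of 0.65 had the opposite sign in cPS (-0.12) and cPS1 (-0.05), so it did not pass. Without the 10 cells with ectoderm or endoderm markers the ratio was 1.25, and CDH2 still passed neither rule.

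EPCAM, an epithelial adhesion molecule, had medians of 673 CPM in SNAI2-high and 1079 CPM in SNAI2-low cells and was lower in all 4 series, by -0.38 to -0.57, short of 1.5-fold in the pooled cells (-0.50). Of 15 measured genes of adherens junctions, desmosomes and keratins 13 did not pass, where 8.82% of all measured genes rose and 4.21% fell. PVRL3 (nectin 3) rose by 1.33 and MLLT4 (afadin) fell by 0.64. Neither passed without the 10 marker-bearing cells, PVRL3 at 0.93 and MLLT4 at -0.53. The catenins CTNNA1 (-0.05), CTNNB1 (0.43) and CTNND1 (-0.08) were among the 13 that did not pass. KRT7, a keratin of simple epithelia, stood at -1.59 in all cells and at 1.75 without the 10 marker-bearing cells, and passed in neither case.

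In the list of polarity genes and regulators of the epithelial state, 14 of 24 were measured, 3 fell and none rose. Of all measured genes 4.21% fell and 8.82% rose. CRB2, an apical polarity protein that ingression requires in the mouse, fell by 0.65, ESRP2, an epithelial splicing factor, by 1.13 and GRHL2, an epithelial transcription factor, by 0.94. GRHL2 was detected in 19 of 96 SNAI2-high and 5 of 34 SNAI2-low cells, so its difference rests on few cells. PARD3 (0.29), PRKCI (0.35) and EZR (0.03, or 0.76 without the 10 marker-bearing cells), members of the polarity machinery, did not pass.

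Transcription factors linked to the mesenchymal change gave 3 that rose and none that fell among 10 measured of 20 listed. Of all measured genes 8.82% rose and 4.21% fell. ZEB1 was detected in 53 of 96 SNAI2-high and 6 of 34 SNAI2-low cells, with medians of 21.1 and 0.318 CPM and a log2 ratio of 2.65. ZEB2 had medians of 20.4 CPM in SNAI2-high and 0.413 CPM in SNAI2-low cells and a ratio of 2.30, and ETS1 was the third. TWIST1 was at 1.96 CPM in SNAI2-high and 0.0758 CPM in SNAI2-low cells, under the limit for a measured gene.

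SNAI1 and VIM lay on the other side. SNAI1, the family member of SNAI2, was at 4.94 CPM in SNAI2-high and 21.8 CPM in SNAI2-low cells and passed 10 CPM in 7 of 96 and 11 of 34 cells. Its log2 ratio of -1.94 was between -2.61 and -2.28 in cPS, cPS2 and cPS3 but 2.60 in cPS1, so it did not pass, nor did it without the 10 marker-bearing cells (-2.69). VIM (vimentin), the intermediate filament usually taken as mesenchymal, had medians of 70.4 CPM (0 to 650) in SNAI2-high cells and 260 CPM (4.76 to 702) in SNAI2-low cells. Its log2 ratio was -1.06 in the pooled cells and between -2.10 and -1.25 in 3 series, but 0.57 in cPS2.

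**Figure D4:**
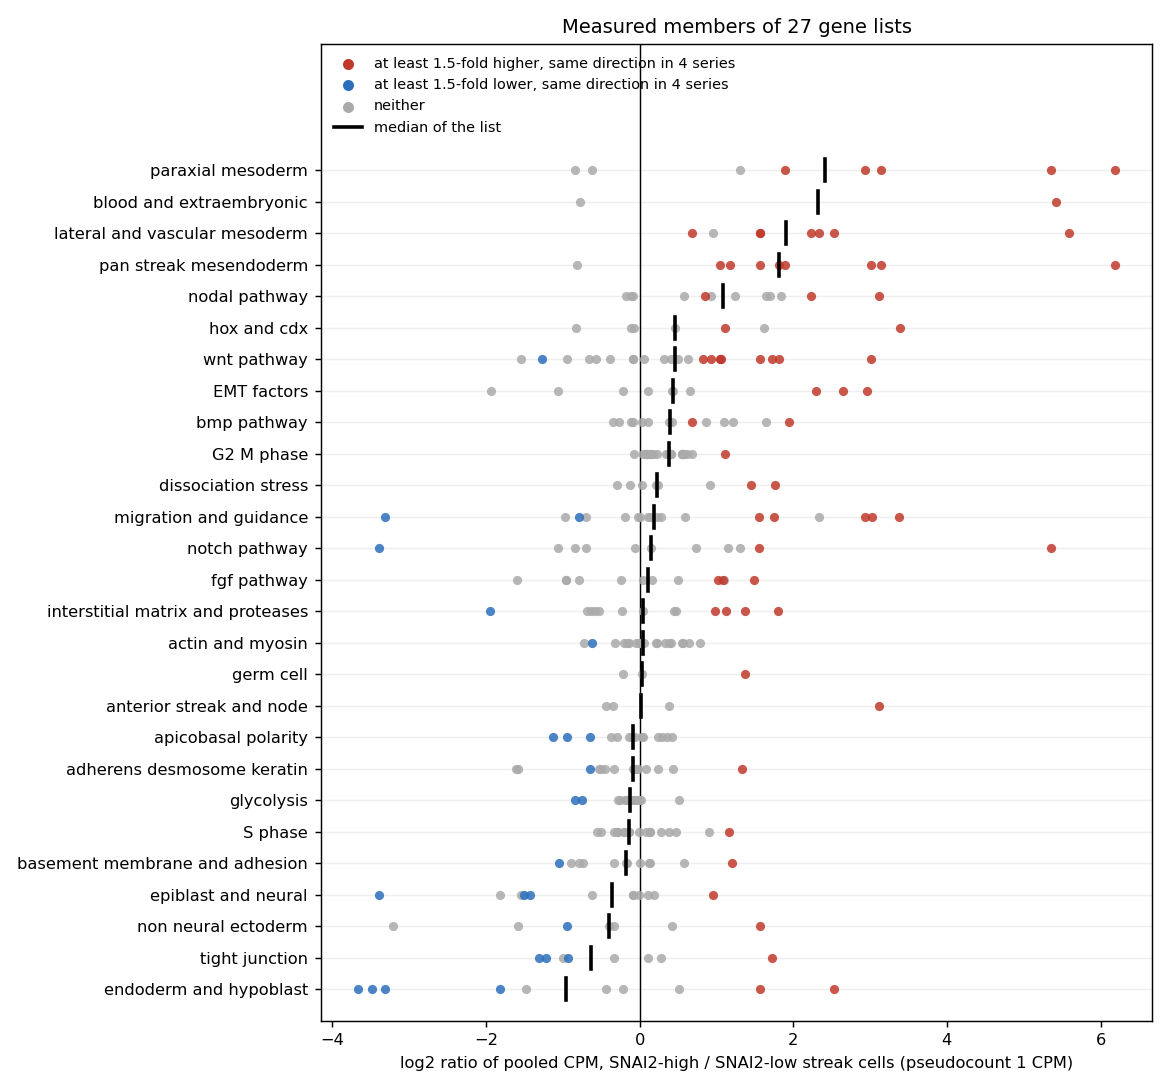
Each point is a measured member of 1 of 27 gene lists, placed by its log2 ratio of pooled CPM in SNAI2-high over SNAI2-low streak cells; red members rose and blue members fell by the 1.5-fold rule, and black bars are list medians. The paraxial (2.41), blood and extraembryonic (2.32, 2 measured genes), lateral and vascular (1.90) and streak (1.81) lists lie to the right. To the left lie the tight junction (-0.64) and endoderm (-0.96) lists. All cells are kept in this figure, and without the 10 cells with ectoderm or endoderm markers the endoderm median was 0.43.

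Genes for guidance and migration gave 5 that rose and 2 that fell of 18 measured, against 8.82% and 4.21% of all measured genes. PDGFRA, the PDGF receptor of migrating mesoderm, was detected in 50 of 96 SNAI2-high and 4 of 34 SNAI2-low cells, with a log2 ratio of 3.02 (0.74 in cPS1 to 5.89 in cPS). PLXNA2, a semaphorin receptor, rose by 2.93 and was found in 64 and 6 cells. CXCL12, a chemokine, rose by 1.75, while its receptor CXCR4 fell by 3.31. CXCL12 still rose without the 10 marker-bearing cells, but CXCR4 stood at -0.94 and no longer passed. SEMA6D rose by 1.55 and SEMA3A fell by 0.79, both of them semaphorins.

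PREX1, an exchange factor for Rac, was outside the naming rule and was picked out after its values were seen, because it was the most evenly present of the genes that rose. It was detected in all 96 SNAI2-high cells, from 10.3 to 1714 CPM with a median of 486, and in 18 of 34 SNAI2-low cells, from 0 to 682 CPM with a median of 12.2. The log2 ratio was 2.61, between 1.58 and 3.92 within series. Picked in the same way, RBM24, an RNA-binding protein of muscle and heart precursors, was found in 92 and 16 cells (2.45), and HAPLN1, a link protein of hyaluronan matrix, in 69 and 7 cells (2.37). In the list of actin and myosin genes and their regulators none of 20 measured members rose and only SHROOM3 fell (-0.62), and that ratio was 0.43 without the 10 marker-bearing cells. Without those cells none of the 20 fell and 3 rose, MYH9 (0.61), ROCK1 (0.71) and ELMO1 (1.82), with no matching share of all measured genes given.

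Of 12 measured basement membrane and adhesion genes 1 rose and 1 fell, where 8.82% of all measured genes rose and 4.21% fell. LAMA5, a laminin chain, had medians of 356 CPM in SNAI2-high and 105.5 CPM in SNAI2-low cells and a log2 ratio of 1.2. LAMA1, another laminin chain, had medians of 162.3 and 382 CPM in SNAI2-high and SNAI2-low cells, but its ratio of -0.89 had the opposite sign in cPS (0.12). NET1, a guanine nucleotide exchange factor, fell by 1.05. Of 13 interstitial matrix and protease genes, FBN1 (1.79), FBLN2 (1.13), ADAMTS9 (1.36) and TIMP3 (0.98) rose and FBLN1 fell by 1.95. When the 10 marker-bearing cells were left out NET1 (-0.60), FBN1 (1.54), ADAMTS9 (1.44) and FBLN1 (-1.57) no longer passed, and LAMA1 fell at -1.04.

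Genes of the uncommitted epiblast were among those that fell. NANOG, the pluripotency factor, had medians of 3.97 CPM (0 to 299) in SNAI2-high cells and 71.6 CPM (0 to 644) in SNAI2-low cells, and a log2 ratio of -1.51. It was still found in 44 of 96 SNAI2-high cells, and 12 of 34 SNAI2-low cells did not reach 10 CPM. ERNI, a gene of the early chick epiblast, had pooled levels of 194 CPM in SNAI2-high and 526 CPM in SNAI2-low cells (-1.43). PHC1, a Polycomb subunit, was found in 45 of 96 and 28 of 34 cells, with a ratio of -2.05. In the epiblast and neural list 3 of 12 measured genes fell and 1 rose, against 4.21% and 8.82% of all measured genes.

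HES5 was detected in 22 of 96 SNAI2-high and 21 of 34 SNAI2-low cells, and ranged from 0 to 369 CPM in SNAI2-high and from 0 to 1357 CPM in SNAI2-low cells. Its log2 ratio was -3.40, from -4.99 in cPS to -1.14 in cPS1, and -4.18 without the 10 marker-bearing cells. SOX3, a neural epiblast factor, had a ratio of -1.82 but the opposite sign in cPS1 (0.23). HES5 was seen together with SOX3 in 7 of 96 SNAI2-high and 15 of 34 SNAI2-low cells, and with NANOG in 11 SNAI2-high and 16 SNAI2-low cells. HES5, NANOG and SOX3 were thus not found in every SNAI2-low cell.

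The remaining genes with the 15 largest falls have less known of them in the streak. SAMD3, named for its SAM domain, was found in 15 of 96 SNAI2-high and 16 of 34 SNAI2-low cells (log2 ratio -2.98), and MAP7D2, a microtubule-associated protein, in 15 and 19 (-2.13). Its relative MAP7, outside the naming rule and picked after its values were seen, was found in 24 and 19 cells (-1.66). PTGDS, a prostaglandin synthase (-3.10), GABRB2, a GABA receptor subunit (-2.65), LRRC31 (-2.46), DDHD2 (-2.39), RFFL (-2.23), SORD (-2.14), USP30 (-2.14), CSTA (-2.13) and RASSF7 (-2.05) complete the set. Of these, LRRC31 (-2.46), DDHD2 (-2.20), SORD (-1.34), CSTA (-2.07) and RASSF7 (-0.85) no longer passed without the 10 marker-bearing cells. Of the 9 genes from PTGDS to RASSF7 only RFFL was detected in more than 15 of the 34 SNAI2-low cells.

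**Figure D5:**
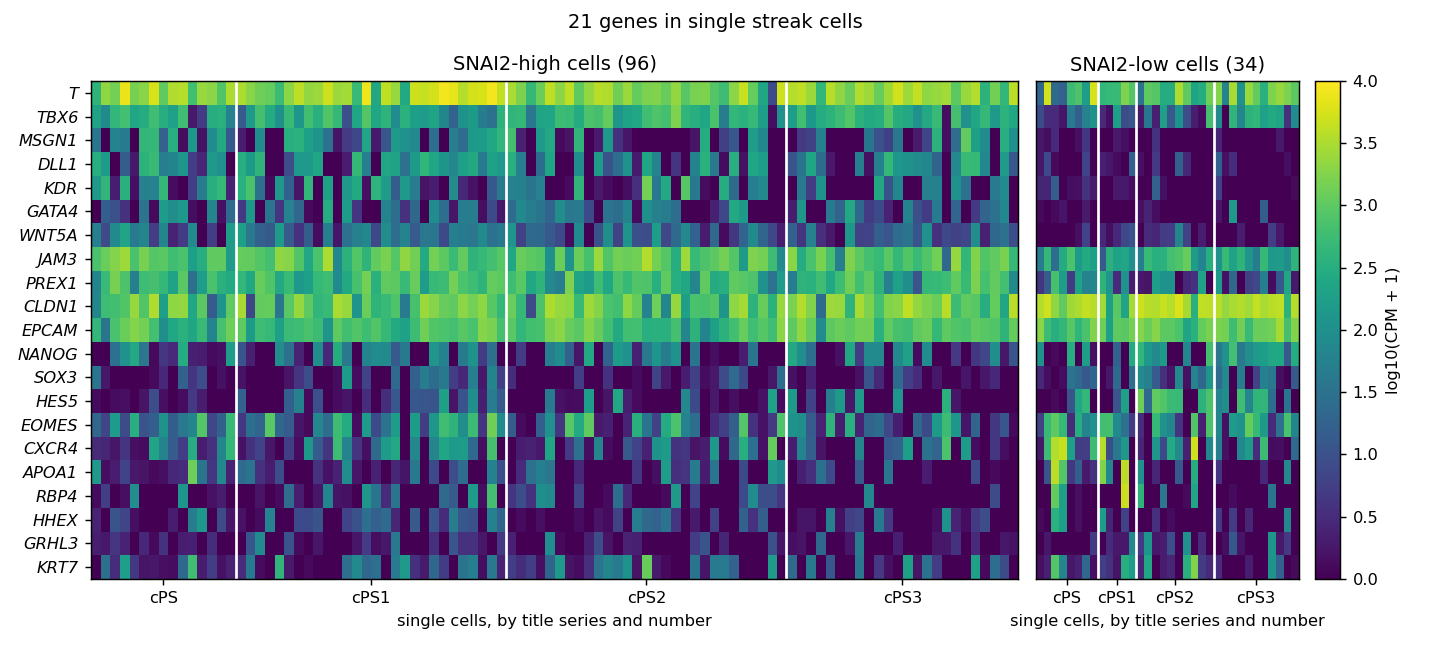
Rows are 21 genes and columns single streak cells in title order within each series, SNAI2-high cells on the left and SNAI2-low cells on the right; colour is log10(CPM + 1). High CXCR4 and APOA1 stand in a few SNAI2-low cells with TBX6 under 10 CPM, while CLDN1 is bright in most SNAI2-low cells.

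CXCR4 was highest in the 4 SNAI2-low cells with at least 3 endoderm markers, of which it is not one. These cells held 3428, 4378, 3769 and 5152 CPM of CXCR4, a chemokine receptor of endoderm and mesoderm precursors, against a median of 3.18 CPM in all SNAI2-high and 30.1 CPM in all SNAI2-low cells. The same 4 cells held 464 to 1033 CPM of EOMES and under 3 CPM of TBX6. Without the 10 cells with ectoderm or endoderm markers the log2 ratio of CXCR4 was -0.94, against -3.31 with them, and it no longer passed. APOA1, an apolipoprotein known from yolk sac endoderm and itself one of the markers, was at -3.66 with them and -2.35 without, where it no longer passed, and a single SNAI2-low cell gave 42.9% of its SNAI2-low counts. RBP4, a retinol carrier and also a marker, was at -3.49 with them and -3.66 without, where it no longer passed, with a single SNAI2-low cell giving 62.6% of its counts. That cell held 4762 CPM of RBP4 and 3879 CPM of APOA1 but fewer than 3 markers, so it was not among the 10 left out, and 1 SNAI2-high cell that was also kept held 1308 CPM of APOA1. In the endoderm and hypoblast list 4 of 10 measured genes fell and 2 rose, and without those cells none fell and the same 2, GATA4 and GATA6, rose. The non-neural ectoderm list had 1 gene that rose, GATA2, and 1 that fell, GRHL2, of 7 measured, and the blood and extraembryonic list 1 that rose, FLI1, of 2.

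Of 79 named genes that passed either rule, 55 also passed without the 10 cells with ectoderm or endoderm markers, and 23 of the other 24 kept their sign. That choice leaves 3 SNAI2-low cells in cPS1, 6 in cPS, 7 in cPS2 and 10 in cPS3. All 5 paraxial genes still rose, as did 7 of the 8 streak genes (all but WNT11) and 6 of the 7 lateral and vascular genes (all but SMAD6). ZEB1 and ETS1 still rose, and ZEB2 no longer passed, at 1.85. In the tight junction list JAM3 still rose, MPP5 no longer passed, at -0.52, and JAM2 fell by the 1.5-fold rule, at -1.01. CRB2 and ESRP2 still fell, while GRHL2, at -0.65, and MLLT4 no longer passed, and EPCAM then passed at -0.65. HES5 and ERNI still fell, and NANOG no longer passed, at -1.67.

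Cells between the SNAI2 limits stood between the groups in the median of T, TBX6, PREX1, CDH2, CLDN1, EPCAM and VIM. The median of T was 2345 CPM in SNAI2-high, 812 CPM in SNAI2-low and 1518 CPM in the cells between. That of TBX6 was 293, 25.4 and 95.1 CPM in the same order. CLDN1 had 1058 CPM in SNAI2-high, 3468 CPM in SNAI2-low and 2919 CPM in the cells between, closer to SNAI2-low cells. DLL1 was detected in 23 of these 45 cells, while MSGN1 was detected in 9 and KDR in 8. CENPF, a mitotic gene, had medians of 142.4, 91.3 and 157.5 CPM in the same 3 groups and did not follow the order.

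The surrounding region offers the same contrast in cells that played no part in the choice of genes. Of the 336 genes that rose in the streak, 254 (75.6%) were also higher in SNAI2-high cells of the surrounding region and 46.4% were at least 2-fold higher, against 51.6% and 17.9% of all measured genes. Of the genes that fell, 84.9% were also lower and 81 (58.3%) at least 2-fold lower, against 48.4% of all measured genes lower and 1067 of the 7616 at least 2-fold lower. MSGN1, NDP and DLL1 had log2 ratios of 4.28, 6.19 and 6.30 there, HES5 -5.50, SAMD3 -5.18 and CLDN1 -2.46. T had 3.16, with 1692 CPM in SNAI2-high and 188 CPM in SNAI2-low cells of the surrounding region. The ratio in the streak was 1.18, with 2547 CPM in SNAI2-high and 1124 CPM in SNAI2-low cells.

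Some of the genes with large ratios in the streak had small ones in the surrounding region. KDR had 324 CPM in SNAI2-high and 241 CPM in SNAI2-low cells there, a log2 ratio of 0.42 against 5.59 in the streak, and it was detected in 15 of 17 and 4 of 10 cells. The SNAI2-low level there comes from 2 cells with 880 and 638 CPM, while the other 8 held 0 to 33.6 CPM. FLI1 was at 356 and 443 CPM (-0.31), PAX2 at a ratio of 0.29 and DLC1 at 0.21. These ratios rest on 17 and 10 cells, and their difference from the streak was not tested. The surrounding region shares its library blocks with cPS alone, so against the other streak series region and block cannot be told apart.

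Few cell cycle genes passed the 1.5-fold rule. Of 19 measured S-phase genes CCNE1 rose (log2 ratio 1.16) and none fell, with a list median of -0.14, and of 24 measured G2 and M genes CDC20 rose (1.11) and none fell, with a median of 0.38. Without the 10 marker-bearing cells CCNE1 (0.98) no longer passed, HELLS, a chromatin remodeller of the S-phase list, fell at -0.77, and 4 G2 and M genes rose, CDC20 (1.02), CENPE (0.75), KIF20A (0.77) and CKAP2 (1.13), with a list median of 0.56. The share of all measured genes that rose by the 1.5-fold rule without those cells is not given, so this count has no matching share. Of 8 genes known to respond to cell dissociation ATF3 (1.44) and MYC (1.76) rose, 25% of the list where 8.82% of all measured genes rose, and JUN was at -0.30. Without those 10 cells the same 2 rose, ATF3 at 1.09 and MYC at 2.67. Among 14 glycolysis genes the glucose transporter SLC2A3 (-0.76) and the hexokinase HK1 (-0.84) fell and none rose. Of 7 measured HOX, CDX and cofactor genes HOXB1 (1.11) and MEIS1 rose. Without those 10 cells HOXB1 (0.79) no longer passed, HOXB5 rose (2.38) and MEIS2 fell (-1.22). The germ cell list held 3 measured genes, of which PIWIL1 rose (1.37). In the list of the anterior streak and node LEFTY2 rose, and CHRD, a BMP antagonist, was at -0.35 with signs that differed between series.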

How the data were processed

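Per the labels, single cells of stage 4 embryos were made into Nextera XT libraries. RSEM 1.2.3, CASAVA 1.8.2 and Bowtie (0.12.9, but 0.12.8 in the case of 1 cell) are named with the build galGal4 in the submitters' processing notes, which give them no roles. The annotation is not given in the sources used here. Values deposited by the authors are expected counts per gene in 2 tables, unscaled and without molecular identifiers, so PCR copies are included. Intervals of pooled levels take these copies as separate counts and cover counting error only. Intervals of shares of cells take cells as independent draws. Only part of the streak table was at hand, and its incomplete last row was left out; the 20581 genes complete in both tables were used, and 640 genes of the surrounding-region table were not used here. Genes that share reads with near-identical copies may be split between them.

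CPM was taken over those genes, and pooled CPM is a gene's summed counts over the summed totals. Pooled levels have exact Poisson and shares of cells exact Clopper-Pearson intervals at 95%. Ratios are SNAI2-high over SNAI2-low. Sums of expected counts were rounded for intervals and for the scaling factors of edgeR 4.0.16 (TMM) and DESeq2 1.42.0, used with R 4.3.3. No count model was fitted, because cells are not replicates. Other steps used Python 3.11.15, numpy 2.4.6, pandas 2.3.3, scipy 1.17.1 and matplotlib 3.10.9. Library blocks are consecutive runs of the library identifiers in the labels. No cell was removed and no doublet caller was run. No pair of cells had log2 CPM values correlated above 0.857.

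Named genes were the 15 largest ratios each way past the rule of size, up to 4 members of each of 27 lists, and all members of the junction, polarity, mesenchymal and streak lists. The groups, lists and rules were chosen with earlier results of these data known. Of 68 unnamed identifiers past the rule 32 matched a RefSeq gene table of another build, used for names only. The comparison code was tested on simulated data. Promoter sequences were not used here, and a few members of the lists are not reported here.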

Additional observations from a re-analysis of the deposited data

Results flagged for a closer look

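In the list of adherens junction, desmosome and keratin genes, the median log2 ratio of SNAI2-high over SNAI2-low cells was -0.51 in cPS, far from -0.13 in cPS1, -0.13 in cPS2 and -0.06 in cPS3. It was picked out by its gap to the other 3 series in a check of 26 lists, a check that chance alone trips in about 1 in 20 groups.

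APOA1 was higher in SNAI2-high cells of the surrounding region (log2 ratio 1.25) and lower in those of the streak (-3.66, in all 4 series). ETS1 was lower in SNAI2-high cells of the surrounding region (-1.21) and higher in those of the streak (2.96, in all 4 series). Both were picked out because the regions moved in opposite directions, and neither difference was tested.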

How the results depend on the processing

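The report counts 336 genes that rose and 1.83% of measured genes that fell by the rule of size, and 52 and 21 list members by the 1.5-fold rule. Over 22 alternatives, 72 of 79 named genes that passed kept their direction in all of them. Both rules had already asked for the same direction in all 4 series. Alternatives that drop or reweight series, or change only the scaling, could thus hardly reverse such a gene, so 72 of 79 is a weak check. With 10 CPM added in place of 1 the counts were 214 and 90. Where fewer series have to share a direction, more genes pass by construction. Without cPS1 278 genes fell, with 34 list members. Without cPS2 520 rose and 220 fell, and without cPS3 514 rose. Blocks 1 and 2, which hold cPS alone among the streak series, gave 1406 and 770 genes and 93 and 60 list members. Block 3, with 2 usable series, gave 951 and 304 genes and 84 and 32 list members, and block 4, also with 2, gave 705 and 410 genes and 39 list members that fell. Cells with HINTW at 700 CPM or more (1 usable series) gave 1237 and 527 genes and 98 and 57 list members, and those under 100 CPM gave 10 list members that fell. Cells with CENPF at or over the streak median (2 usable series) gave 744 and 250 genes and 79 and 35 list members, and those under it 12 list members that fell.

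The log2 ratio changed sign in block 3 for GRHL2 (0.64), PVRL3 (-0.27) and SHROOM3 (0.48). SHROOM3 also did so without the 10 marker-bearing cells (0.43), with HINTW under 100 CPM (0.17) and with CENPF under the median (0.33). FBN1 did so with HINTW at 700 CPM or more (-0.0387), and APOA1 (0.56), CRB2 (0.31) and MLLT4 (0.23) with CENPF at or over the median; the cause was not tested. The share of higher calls was 70.7% and ran from 61.6% without cPS1 to 75.8% in block 3. The median of all measured genes moved from 0.02 to 0.15 with the 4 series weighted alike and to 0.15 without the highest cell of each group.

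With 34 SNAI2-low cells, a gene detected in none of them has an exact 95% interval that reaches 10.3% of such cells. No paired analysis was possible because the result comes from no test and the numbers in the titles only name cells.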
